A study of Mus musculus with 24 samples.

Results

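The enzymes of de novo purine synthesis were followed in mammary tumors that arose early or late in mice on high-fat and low-fat diets. The members were 10 genes, taken as the probes for genes (not controls) whose name in the array files was Ppat, Gart, Pfas, Paics, Adsl, Atic, Impdh1, Impdh2, Gmps or Adss. They were measured by 16 of 39429 probes, all 16 passed the filter on low signals, and with the brightest probe for each gene they made up 10 of 20920 genes tested between early and late tumors. The study itself picked out this pathway from these tumors, so counts over the members are not independent evidence of its direction.

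De novo synthesis builds the purine ring step by step on phosphoribosyl pyrophosphate (PRPP), from glycine, glutamine, aspartate, carbon dioxide and formyl groups of folate. Ppat, Gart, Pfas, Paics, Adsl and Atic lead to inosine monophosphate (IMP), and from IMP one branch runs through Impdh1 or Impdh2 and Gmps to GMP, the other through Adss and Adsl to AMP. Dividing cells draw on the pathway for DNA, RNA and nucleotide cofactors, and several of its genes are known targets of the transcription factor MYC.

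Total RNA of 24 DMBA-induced tumors from BALB/c mice was applied to 24 Agilent arrays that cover the mouse genome. The carcinogen 7,12-dimethylbenz[a]anthracene (DMBA) was given to all groups, so no group was free of it. The labels gave a diet and an onset: 5 tumors were LFD Late, 3 HFD Early, 6 HFD Late, 4 LFD-HFD Late, 3 HFD-LFD Early and 3 HFD-LFD Late, where LFD and HFD are continuous low-fat and high animal fat diets and the hyphenated names are diets exchanged after puberty in the order written. No LFD or LFD-HFD tumor was early, so onset and diet overlapped in part, and the age at each tumor is not in the labels. Nothing in the labels says that every tumor came from a mouse of its own, and p-values measure only the spread between these tumors. In whole tumors, fewer cells of a type and less RNA per cell cannot be told apart.

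All values are log2 ratios of tumor RNA in cyanine 5 (Cy5) to Universal Mouse Reference RNA, a pool of 11 mouse cell lines, in cyanine 3 (Cy3). This direction follows the labels and opposes the study's methods, which place the reference in Cy5. Over 29632 spots on 24 arrays the median SD between arrays was 0.65 in Cy5 and 0.30 in Cy3, and 93.4% of spots varied more in Cy5, the channel that held a different RNA on each array. A ratio of 0 is the level of the reference, so ratios of different genes are not compared as levels. On the 7 arrays of slides 6 and 7, all late tumors, 14.5% to 18.3% of the spots lay in rows with dimmed Cy5 and were left missing. Probes of Paics, Adsl, Pfas and Impdh1 and others lay in those rows on slide 6, and that of Impdh2 on slide 7, which is why the number of late tumors differs between genes. The 3 HFD Early tumors had slide 2 to themselves, and 1 slide only held both early and late tumors. Scan session 1 held the 3 HFD Early tumors and 8 late ones. Session 2 held the 3 HFD-LFD Early tumors and 3 late ones, and session 3 held late tumors alone. Per array, the share of probes with Cy5 signal well above background was 66.8% to 89.2%. The number of arrays limits the precision.

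RefSeq promoter sequences (GRCm38.p6) were available for 9 of the 10 members, Pfas being without one, and were searched over the 250 bases upstream of the annotated start for CACGTG, the E-box that MYC and MAX bind. The motif reads the same on both strands. It was found for Paics, Atic and Impdh2, that is in 33.3% of the 9 members against 6.86% of 27025 genes with a window. Paics and Ppat lie head to head on chromosome 5, with annotated genes that share 277 bases at their starts, so the stretch upstream of Paics lies within Ppat. Of these 3 genes Paics and Impdh2 rose in early tumors, and Atic did not pass the test. The site of Impdh2 stands in its full window below. Those of Paics and Atic are shown with their flanks, with the E-box in capitals:
Paics, chr5:76951087-76951116, plus strand: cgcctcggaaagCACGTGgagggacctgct
Atic, chr1:71557126-71557155, plus strand: gaggaggggcgggacctcggggtCACGTGg
The full upstream windows of the IMP dehydrogenase genes are shown because these isozymes moved in opposite directions. The window of Impdh2 holds 1 E-box, in capitals, which ends 104 bases before the start, and neither window of Impdh1 holds one (its first window is shown):
Impdh2, chr9:108560186-108560435, plus strand: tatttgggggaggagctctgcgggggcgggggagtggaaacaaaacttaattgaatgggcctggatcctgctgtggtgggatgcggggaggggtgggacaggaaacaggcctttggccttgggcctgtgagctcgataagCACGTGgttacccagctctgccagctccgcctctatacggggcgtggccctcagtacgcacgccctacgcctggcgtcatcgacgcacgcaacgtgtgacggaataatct
Impdh1, chr6:29216365-29216614, minus strand: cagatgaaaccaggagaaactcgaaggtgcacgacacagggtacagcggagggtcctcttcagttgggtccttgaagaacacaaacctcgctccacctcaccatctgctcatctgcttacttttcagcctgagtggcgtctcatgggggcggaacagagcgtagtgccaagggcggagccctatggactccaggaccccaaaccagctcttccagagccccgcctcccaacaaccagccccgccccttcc
A match or its absence describes these letters only.

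Between 6 early and 18 late tumors, Paics rose by 0.99 on the log2 scale, which is 1.99-fold, Impdh2 rose by 0.42 and Impdh1 fell by 0.49. The other 7 members did not pass the test. This comparison asks whether tumors of short latency differ in expression from later ones, over all diets. Of 20920 genes tested with limma, 15.4% passed an adjusted p of 0.05, 5.92% higher and 9.46% lower in early tumors. Of the 10 members 3 passed, 2 higher and 1 lower. The differences of 8 members were above 0, with a median of 0.30 over the members and -0.05 over all genes. Centring each array on its median, in place of loess, moved the median over all genes to 0.21 and the share of called genes that were higher from 38.5% to 82.3%. Under it 22.1% of the genes (4615 of 20920) and 7 of the 10 members passed, with a median of 0.72 over the members, and Impdh1 did not.

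**Figure D1:**
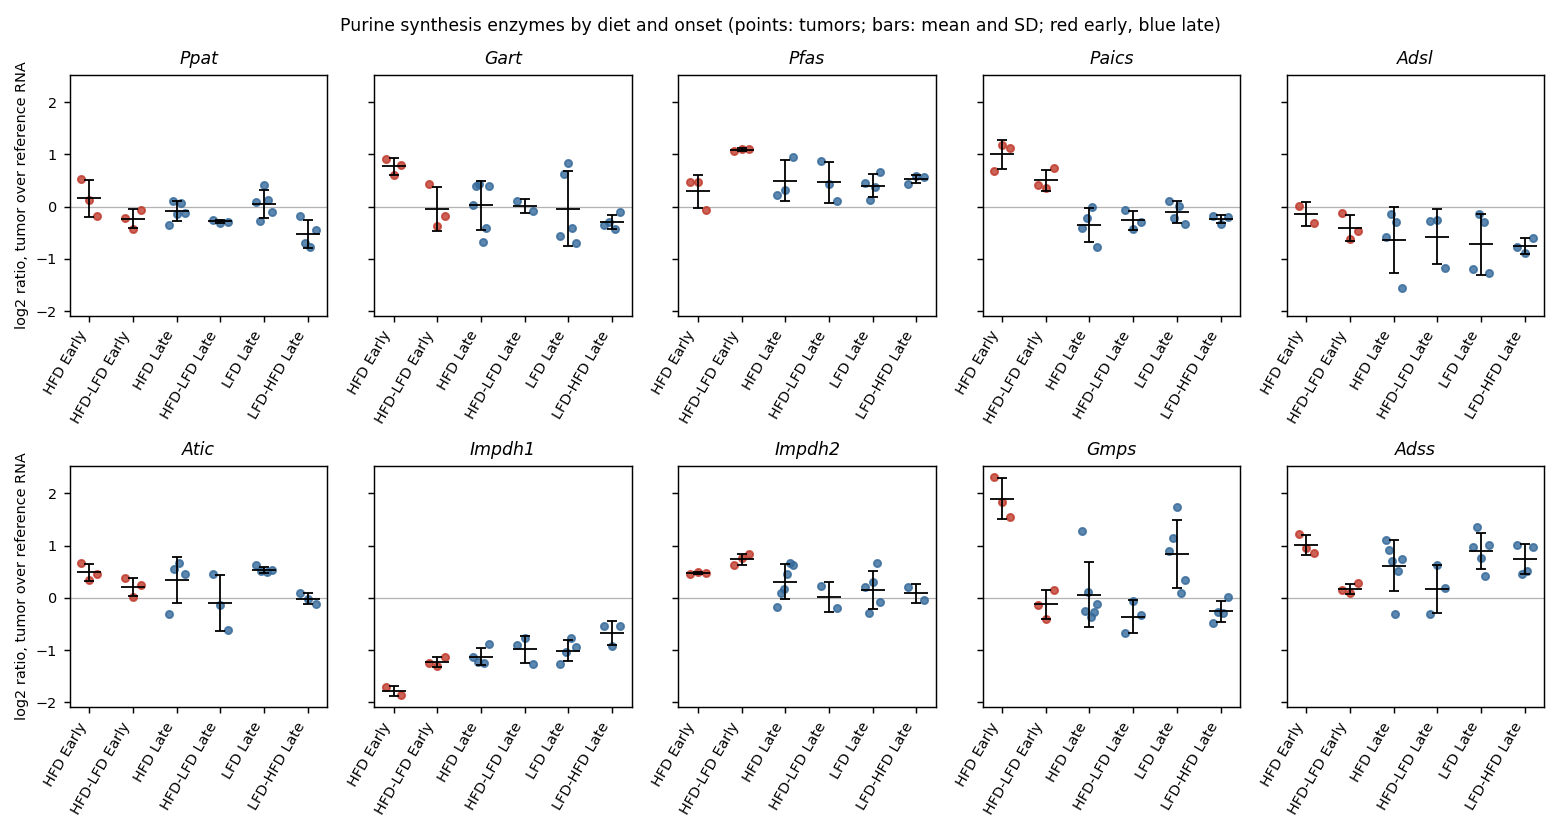
Log2 ratio of tumor over reference RNA (y axis) for each enzyme in the 6 groups of diet and onset, with a point per tumor and bars for mean and SD. For Paics the 6 early tumors, at 0.37 to 1.18, lie above the 14 late tumors with a value, which end at 0.11.

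Ppat, the amidotransferase of the committed first step, had log2 ratios of 0.53, 0.12 and -0.17 in HFD Early and -0.23, -0.42 and -0.06 in HFD-LFD Early tumors. In 17 late tumors they ran from -0.78 over a median of -0.18 to 0.42. All 17 late values lay below the highest early one and 14 within the early range, and the difference of 0.14 (SE 0.15, 95% interval -0.16 to 0.45) did not pass (adjusted p = 0.523). These values come from the brighter probe, chr5:77347115-77347174 on mm9. A dimmer probe nearer the 3′ end of the gene, chr5:77342626-77342685, gave 0.87, 1.05 and 0.61 in HFD Early and 0.17, 0.30 and 0.62 in HFD-LFD Early tumors. It rose by 0.68 (SE 0.13), with an adjusted p of 0.00306 over all probes that passed. The probes of Ppat thus disagreed, and with the mean over both its difference was 0.41 (adjusted p = 0.0265).

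Gart, which carries several of the steps that follow Ppat, had ratios of 0.92, 0.60 and 0.79 in HFD Early tumors and 0.42, -0.38 and -0.18 in HFD-LFD Early tumors. The 17 late tumors ran from -0.69 over -0.10 to 0.84. The HFD Early tumors, at 0.60 or more, lay at the upper end of the late range or above it, and the HFD-LFD Early tumors lay within it. The difference of 0.43 (SE 0.22) had an adjusted p of 0.180, and the other probe of Gart gave 0.38 (SE 0.13, adjusted p = 0.0573 over probes). Pfas, the amidotransferase after Gart, stood at 1.06, 1.1 and 1.11 in the 3 HFD-LFD Early tumors, above all 13 late tumors, which ran from 0.10 over 0.44 to 0.95. The HFD Early tumors, at 0.47, 0.48 and -0.07, lay within or below that range. Over all early tumors the difference was 0.22 (SE 0.17, adjusted p = 0.374).

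Paics joins the carboxylase and synthetase activities that follow in the pathway. Its single probe lies at chr5:77396219-77396278 on mm9. The log2 ratio was 0.69, 1.18 and 1.13 in HFD Early and 0.41, 0.37 and 0.73 in HFD-LFD Early tumors, against -0.77 over a median of -0.22 to 0.11 in 14 late tumors. The early tumors did not overlap with the 14 late tumors measured. The 4 late tumors of slide 6 had no value, and the share of all genes without overlap was not counted. The difference of 0.99 (SE 0.13, 95% interval 0.72 to 1.26) had an adjusted p of 0.000193 by limma and the 26th smallest p of the 20920 genes. Within scan session 1 it was 1.23 (adjusted p = 0.0150) and within scan session 2 it was 0.78 (adjusted p = 0.0314). The early tumors were of HFD alone in session 1 and of HFD-LFD alone in session 2, and neither fit took slide into account. With slide as a fixed block the difference was 0.84 and did not pass. That value rests on slide 4, the only one with both early and late tumors. It sets 3 HFD-LFD Early tumors against 1 late tumor, of LFD-HFD. None of the 24 fits that left out 1 array lost the call.

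Adsl cleaves fumarate from intermediates both before IMP and on the way to AMP. It had ratios of 0.02 and -0.31 in 2 HFD Early tumors (the spot of the other was flagged) and -0.13, -0.63 and -0.48 in HFD-LFD Early tumors. The 14 late tumors ran from -1.55 over -0.59 to -0.14, and 8 of them lay within the early range. The difference was 0.37 (SE 0.22, adjusted p = 0.248). Atic, which closes the ring to IMP, had 0.67, 0.34 and 0.45 in HFD Early and 0.37, 0.02 and 0.24 in HFD-LFD Early tumors, against -0.61 over 0.46 to 0.68 in 14 late tumors. Of the late tumors 8 lay within the early range, and the difference of 0.12 (SE 0.17) did not pass (adjusted p = 0.674). The dimmer probe of Atic gave -0.17 (SE 0.15, adjusted p = 0.482 over probes).

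Impdh1 and Impdh2 encode the isozymes of IMP dehydrogenase, the rate-limiting step toward GMP, of which Impdh2 is known as the one induced in proliferating cells. Impdh2 had ratios of 0.45, 0.50 and 0.48 in HFD Early and 0.62, 0.76 and 0.83 in HFD-LFD Early tumors. The 15 late tumors ran from -0.28 over 0.20 to 0.67, and 4 of them reached the lowest early tumor. The difference was 0.42 (SE 0.14, adjusted p = 0.0434) with the probe at chr9:108467836-108467895 and 0.51 (SE 0.15, adjusted p = 0.0267 over probes) with one that overlaps it, chr9:108467842-108467901. The call of Impdh2 was close to the threshold and was lost in 16 of 24 fits that left out 1 array, with differences of 0.37 to 0.45. It was also lost in 7 of 19 alternatives, among them slide as a random block (0.50, adjusted p = 0.0653), matched diets (0.45, adjusted p = 0.0763) and the tumor channel alone (0.35, adjusted p = 0.396).

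Impdh1 moved the other way. Its ratio, from a probe at chr6:29150442-29150501, was -1.71 and -1.85 in 2 HFD Early tumors (the spot of HFD Early replicate 1 was flagged) and -1.25, -1.31 and -1.13 in HFD-LFD Early tumors. In 14 late tumors it ran from -1.27 over -0.94 to -0.54. The HFD Early tumors lay below all late ones, and 5 late tumors lay within the early range. The difference was -0.49 (SE 0.14, 95% interval -0.79 to -0.19, adjusted p = 0.0270). It lost the call without HFD Early replicate 2 (-0.42, adjusted p = 0.0941) or replicate 3 (-0.39, adjusted p = 0.101), and with slide as a random block (-0.50, adjusted p = 0.0727). The difference was smaller or turned under other processing: it was -0.01 (adjusted p = 0.988) with median centring and -0.19 (adjusted p = 0.586) from the tumor channel alone, and 0.34 (adjusted p = 0.790) when the dimmed rows were kept.

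Gmps, which aminates XMP to GMP, varied most among the early tumors. It had ratios of 2.32, 1.84 and 1.54 in HFD Early and -0.13, -0.40 and 0.16 in HFD-LFD Early tumors, and the 18 late tumors ran from -0.68 over -0.09 to 1.73. Of the early tumors those of HFD were high and those of HFD-LFD were not, and the lowest HFD Early value was below the highest late tumor, LFD Late replicate 3. Every value of Gmps above 0.16, early or late, came from scan session 1, where values also ran down to -0.36. Session 1 held the HFD Early and session 2 the HFD-LFD Early tumors, so diet and session cannot be told apart there. The difference over all early tumors was 0.75 (SE 0.36, adjusted p = 0.156), and both other probes of Gmps, at 0.21 and 0.75, did not pass either. These were dim, with 17 and 9 arrays well above background in both channels. With the diets matched, the mean of both within-diet changes of Gmps was 1.04 (SE 0.25, adjusted p = 0.0118). The difference over all early tumors was 0.16 (adjusted p = 0.701) with array weights and 0.46 to 1.01 in fits without 1 array. Adss, the first step from IMP toward AMP, differed by -0.05 (SE 0.21, adjusted p = 0.886). It ran from 0.09 to 1.23 in early and -0.31 to 1.36 in late tumors, with all HFD Early tumors at 0.87 or more and all HFD-LFD Early tumors at 0.28 or less.

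**Figure D2:**
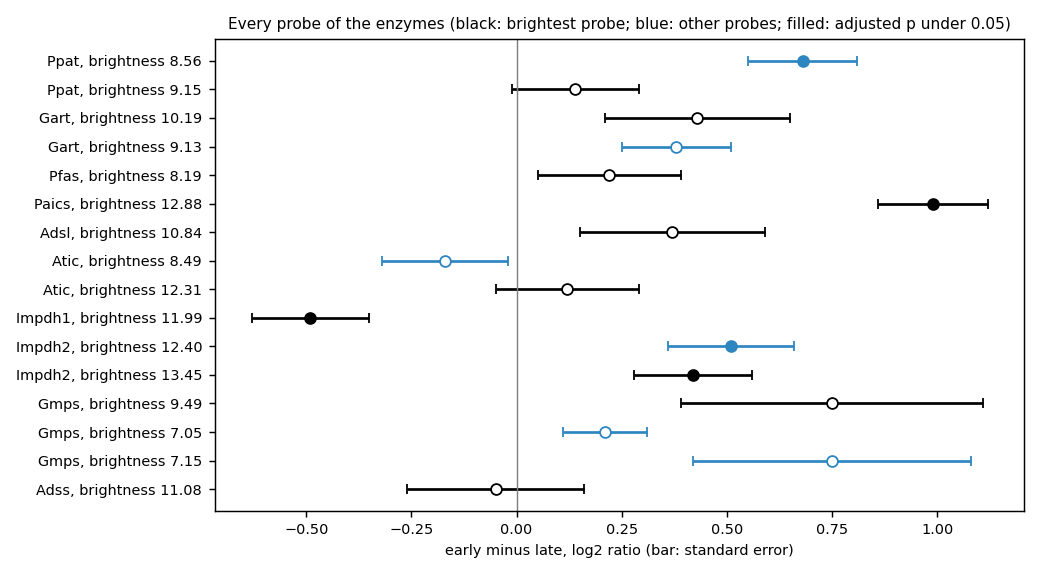
Early minus late difference of the log2 ratio (x axis, bar: standard error) for each of the 16 probes, with the mean log2 brightness over both channels beside the gene. The probes of Ppat stand apart at 0.14 and 0.68, as do those of Gmps at 0.75, 0.21 and 0.75. Those of Atic, at 0.12 and -0.17, differ in sign, while those of Gart and Impdh2 lie close together.

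The differences between neighboring enzymes were tested within tumors, which removes an offset shared by a whole array. Tumors were permuted without regard to slide, and slide 4 alone held both early and late tumors. The p-values of these tests therefore do not account for slide. Paics minus Ppat was 0.79 ± 0.39 (SD, n = 6) in early tumors, while late tumors had -0.01 ± 0.32 (SD, n = 13). The early tumors were higher by 0.80 (exact two-sided permutation test, p = 0.000295), and 4 late tumors reached the lowest early one. Within scan session 1 the difference was 1.04 (exact p = 0.00833, the smallest that 3 against 7 tumors allow), and within session 2 it was 0.56 (exact p = 0.100, likewise the smallest for 3 against 3). With the mean over both probes of Ppat it was 0.55 (exact permutation p = 0.000361).

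Impdh2 minus Impdh1 was 2.09 ± 0.19 (SD, n = 5) in early tumors, while late tumors had 1.07 ± 0.29 (SD, n = 11). The early tumors ran from 1.88 to 2.33 and the late tumors from 0.58 to 1.47, without overlap. The difference of 1.02 had an exact two-sided permutation p of 0.000229, the smallest that these numbers allow, again without regard to slide. It was 1.12 within scan session 1 (2 early against 8 late tumors, exact p = 0.0222) and 1.11 within session 2 (3 against 3, exact p = 0.100), each the smallest p possible there. When the dimmed rows were kept, with Impdh1 in them on slide 6 and Impdh2 on slide 7, it was 0.27 (exact permutation p = 0.761).

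**Figure D3:**
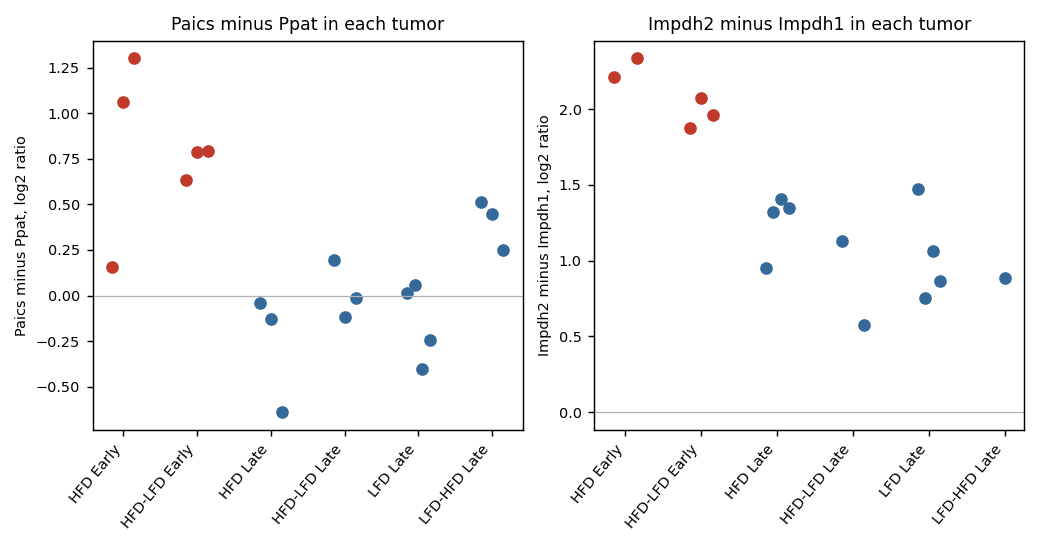
Within-tumor difference of the log2 ratio (y axis) of Paics minus Ppat (left) and Impdh2 minus Impdh1 (right) for each tumor by group. The 5 early tumors with both isozymes measured lie at 1.88 to 2.33, above the late tumors at 0.58 to 1.47.

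Within a diet, the question was whether early tumors differed from late tumors of mice fed alike. In HFD mice (3 early, 6 late tumors) Gmps was higher in early tumors by 1.83 (SE 0.33, 3.57-fold, adjusted p = 0.00278). Paics was higher by 1.35 (SE 0.18, 2.55-fold, adjusted p = 0.000879), with values in 3 early and 4 late tumors. Impdh1 was lower, at -0.66 (SE 0.18, adjusted p = 0.0308), with values in 2 early and 4 late tumors. These 3 of 10 members passed, where 11.2% of 20904 genes did. Gart stood at 0.74 (SE 0.31, adjusted p = 0.125) and Adsl at 0.50 (SE 0.39, adjusted p = 0.435). The dimmer Ppat probe was at 0.97 (SE 0.19, adjusted p = 0.00536 over probes), and a second probe of Gmps at 1.43 (SE 0.31, adjusted p = 0.00970 over probes), but the third at 0.12 (SE 0.14). The call of Impdh1 was lost with slide as a random block (-0.66, adjusted p = 0.156), with median centring (-0.04, adjusted p = 0.949), from the tumor channel alone (-0.56, adjusted p = 0.285), with flagged spots kept (-0.53, adjusted p = 0.0501) and without any 1 of the HFD Early tumors or without HFD Late replicate 4 (adjusted p = 0.0509 to 0.169). As slide 2 held only the HFD Early tumors, slide and group cannot be told apart there.

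In HFD-LFD mice (3 early, 3 late tumors) 0 of 10 members passed by limma, where 0.666% of 20735 genes did. At an unadjusted p under 0.05, 13.9% of the genes passed and 3 members did: Paics, Impdh2 and Pfas. Paics was at 0.77 (SE 0.20, adjusted p = 0.0859), Impdh2 at 0.72 (SE 0.26, adjusted p = 0.220) and Pfas at 0.62 (SE 0.23, adjusted p = 0.231). Impdh2 had values in 3 early and 2 late tumors. Paics passed without HFD Late replicate 4 (0.77, adjusted p = 0.0481), which enters through the shared estimate of the spread. Gmps was at 0.24 (SE 0.39), with a 95% interval of -0.57 to 1.04.

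The test of the difference between both within-diet changes called 0 of 10 members and 0.00965% of 20724 genes by limma. An unadjusted p under 0.05 was found for 3 members and 7.55% of the genes. In simulated data this test recovered 14% of 2-fold changes. The early tumors of both diets lay on different slides and in different scan sessions, so diet cannot be told apart from these here. For Gmps the change in HFD minus that in HFD-LFD mice was 1.60 (SE 0.51, 95% interval 0.54 to 2.66), with an unadjusted p of 0.00502 and an adjusted p of 0.506. The same difference was 0.58 for Paics (SE 0.27, adjusted p = 0.658) and -0.83 for Pfas (SE 0.32, adjusted p = 0.634). With arrays weighted by how closely they fit their group means the difference of Gmps passed (1.58, adjusted p = 0.0254 by limma), as did 621 of 20724 genes.

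**Figure D4:**
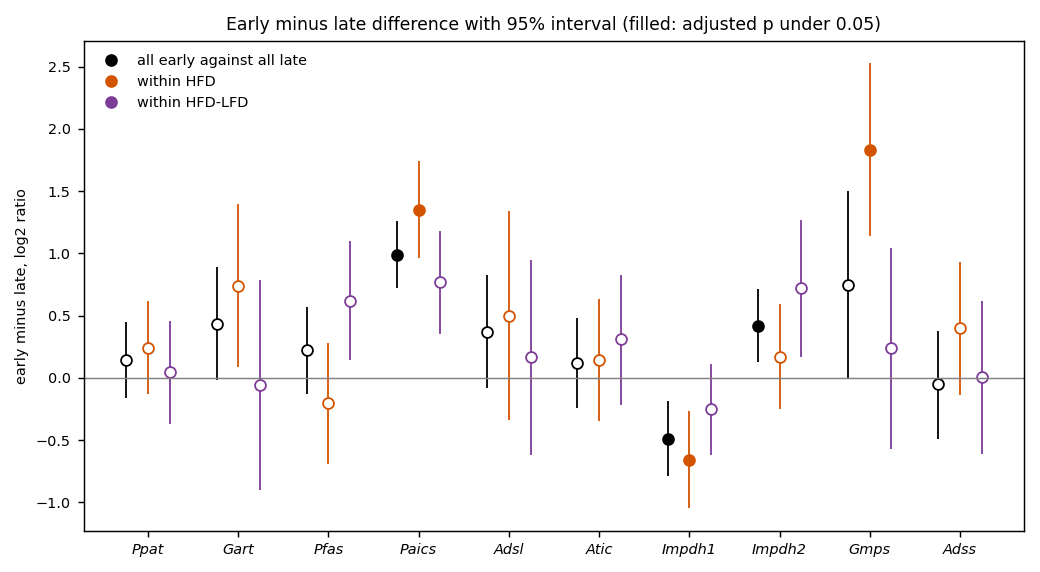
Early minus late difference of the log2 ratio (y axis) with its 95% interval for each enzyme, over all diets, within HFD and within HFD-LFD, filled where the adjusted p was under 0.05. Gmps stands at 1.83 within HFD and 0.24 within HFD-LFD, and Paics at 1.35 and 0.77.

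The continuous diets were compared between 9 tumors of HFD, 3 early and 6 late, and 5 of LFD, all late. Onset is thus part of this comparison. By limma 0 of 10 members passed, as did 0% of 20918 genes, and at an unadjusted p under 0.05 the count was 0 members and 870 genes. The largest of these differences were Paics at 0.34 (SE 0.37) and Impdh1 at -0.34 (SE 0.21). Paics was at -0.24 when only the late HFD tumors were set against LFD. Among late tumors alone, a test over the 4 diets called 0 of 10 members and 1.24% of 20783 genes. At an unadjusted p under 0.05 were 18.9% of the genes and 3 members: Gmps, Ppat and Atic.

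Gmps had the smallest p of the members among the late diets (F = 5.83, adjusted p = 0.102). Its mean was 0.84 ± 0.65 (SD, n = 5) in LFD, 0.06 ± 0.62 (SD, n = 6) in HFD, -0.26 ± 0.20 (SD, n = 4) in LFD-HFD and -0.36 ± 0.31 (SD, n = 3) in HFD-LFD tumors. The LFD tumors ran from 0.10 to 1.73, and the 4 on slide 1 were at 0.35, 0.89, 1.15 and 1.73. It passed without LFD Late replicate 4 (adjusted p = 0.0444) or without HFD Late replicate 1 (adjusted p = 0.0347). Ppat followed in this order (F = 4.64, adjusted p = 0.155), with 0.05 ± 0.26 (SD, n = 5) in LFD and -0.53 ± 0.27 (SD, n = 4) in LFD-HFD tumors. Paics had late means of -0.11 ± 0.21 (SD, n = 4) in LFD, -0.24 ± 0.08 (SD, n = 3) in LFD-HFD, -0.26 ± 0.18 (SD, n = 3) in HFD-LFD and -0.35 ± 0.32 (SD, n = 4) in HFD tumors. The ranges of neighbors in this order overlapped (F = 0.683, adjusted p = 0.758).

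Since early tumors also had higher levels of proliferation markers, the members were set against the mean log2 ratio of 11 proliferation markers within the late tumors alone. Over 11 relations tested, Impdh2 was the member with an adjusted p under 0.05 for both coefficients (Pearson r = 0.71, permutation p = 0.00304, adjusted p = 0.0334; Spearman rho = 0.71, permutation p = 0.00434, adjusted p = 0.0239, n = 15). Without the 2 tumors farthest from the median of the marker mean its r was 0.60, and within the 8 late tumors of scan session 1 it was 0.71. For Ppat, rho was 0.71 (permutation p = 0.00190, adjusted p = 0.0209) and r 0.54 (permutation p = 0.0265, adjusted p = 0.146, n = 17), with r = 0.67 without the 2 farthest tumors and 0.80 and 0.52 within sessions 1 and 3.

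For Paics r was 0.21 (permutation p = 0.466, adjusted p = 0.732) and rho 0.33 (permutation p = 0.251, adjusted p = 0.460) over 14 late tumors, with r = -0.05 without the 2 farthest tumors and 0.21 within session 1. Paics against Ppat gave r = 0.38 (permutation p = 0.198, adjusted p = 0.436) and rho = 0.42 (permutation p = 0.150, adjusted p = 0.413) over 13 late tumors, with r = 0.22 without the 2 farthest and 0.62 within session 1. As a description over 13 or 14 late tumors, the genes with the highest r with Paics were Ntmt1 at 0.89, Mipol1 at 0.85, Ypel1 and 5830408C22Rik at 0.84 and Tspan14 at 0.83, out of 17159 genes with at least 12 shared values. The nearest member was Gart, at 0.45 and rank 1235. Between members, the highest r over late tumors was that of Gart with Adsl, at 0.88.

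Around the pathway, the supply of its substrates and the use of its products were read from gene lists of each step. Over all genes tested, 5.92% passed as higher and 9.46% as lower in early tumors. Of 5 genes of PRPP supply none passed by limma. The one with the smallest p was Prps2, a PRPP synthetase, at 0.69 (SE 0.23, adjusted p = 0.0504), and within HFD mice it rose by 1.42 (adjusted p = 0.000799). Of 12 genes of one-carbon and serine supply, 2 rose and 1 fell, with a median of 0.32: the folate enzymes Aldh1l2 rose by 0.80 (SE 0.21, adjusted p = 0.0129) and Mthfd1l by 0.78 (SE 0.20, adjusted p = 0.0153), and Aldh1l1 was at -1.24 (SE 0.40, adjusted p = 0.0379). Purine salvage, which returns bases to nucleotides, had 0 of 5 genes called, with a median of -0.06 and Pnp2 at -0.18 (SE 0.10, adjusted p = 0.211) as the gene with the smallest p.

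Of 12 genes of purine interconversion and breakdown 2 fell and none rose, with a median of -0.27. Over all genes 9.46% passed as lower and 5.92% as higher. They were the adenosine deaminase Ada at -0.89 (SE 0.27, adjusted p = 0.0277) and the GMP reductase Gmpr at -0.83 (SE 0.25, adjusted p = 0.0303). Of 7 nucleotide kinases Ak3 rose, by 0.62 (SE 0.15, adjusted p = 0.0112). Adssl1, the muscle form of adenylosuccinate synthase, was at -0.46 (SE 0.25, adjusted p = 0.194). Of 10 genes of pyrimidine synthesis and deoxynucleotide supply 3 rose, with a median of 0.26, and none that builds the pyrimidine ring passed. The deoxycytidine kinase Dck, a salvage enzyme, rose by 0.83 (SE 0.09, adjusted p = 1.41e-05, and by 0.78 and 0.99 within HFD and HFD-LFD mice). Thymidylate synthase Tyms rose by 0.68 (SE 0.17, adjusted p = 0.0101) and the ribonucleotide reductase subunit Rrm1 by 0.66 (SE 0.20, adjusted p = 0.0333). Of 3 genes tested for the MYC family and Max, Mycn rose by 3.63 (SE 0.79, adjusted p = 0.00608), and stood at 2.41 (adjusted p = 0.192) within HFD and 3.16 (adjusted p = 0.274) within HFD-LFD mice.

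**Figure D5:**
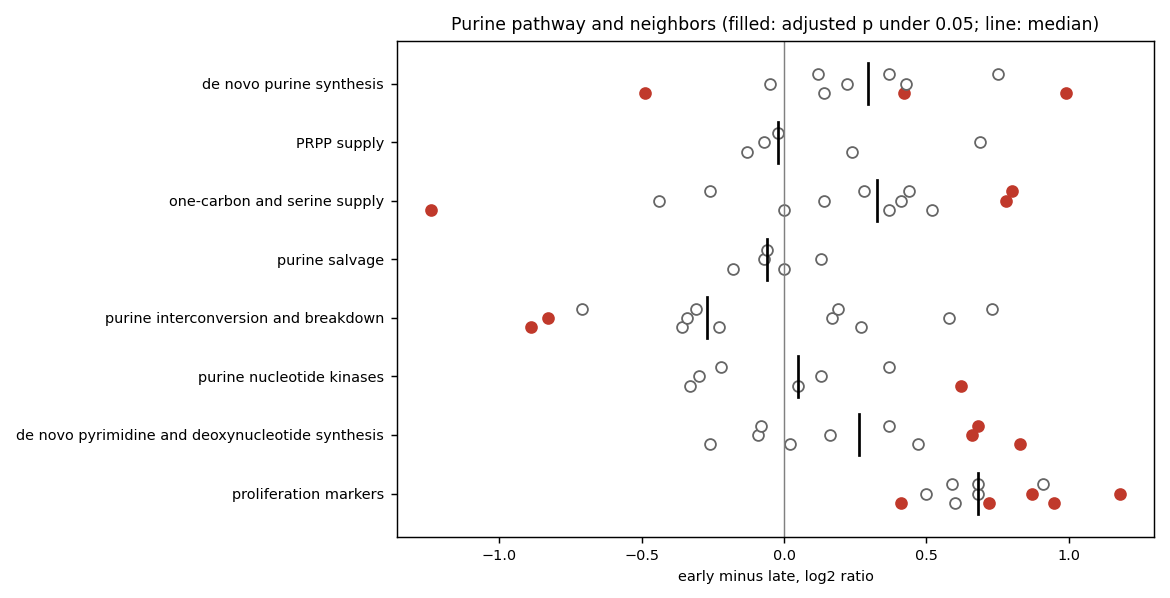
Early minus late difference of the log2 ratio (x axis) for each tested gene of de novo purine synthesis and of 7 other lists, filled where the adjusted p was under 0.05, with a line at the median. The medians run from -0.27 for interconversion and breakdown to 0.68 for proliferation markers, with 0.30 for the purine synthesis enzymes.

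Markers of cell state and of other cell types also differed between early and late tumors, and their part in the differences of the members was not tested. Their counts stand beside 5.92% of all genes that passed as higher and 9.46% as lower in early tumors. Of 11 proliferation markers 5 rose and none fell, and their mean ratio ran from 0.13 to 0.83 in early and from -1.27 to 0.96 in late tumors. Of 7 luminal epithelium markers 3 fell, with means of -0.19 to 2.21 in early and -1.95 to 3.60 in late tumors, and medians of 0.22 and 3.00. The labels give the site as mammary, and the late median of these markers lay above the reference. Of 7 basal markers 1 fell, of 8 squamous markers 1 fell and 7 were above 0, with means of -3.01 to -0.62 in early and -4.96 to 2.48 in late tumors, and 1 of 6 macrophage markers rose. Of 6 fibroblast and 8 skeletal muscle markers 1 each fell, and 0 of 7 T cell, 5 B cell, 6 endothelium and 5 adipocyte markers passed. Their mean ratios in early and late tumors overlapped.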

How the data were processed

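The authors deposited, for each array, the output of Agilent Feature Extraction (8.5.1.1 per the labels): intensity values for both dyes, and log10 ratios of Cy5 to Cy3 normalized for dye by that software, used here as an alternative. No column of other samples was found (0). From the intensities, background was removed with limma's normexp (offset 50) and ratios were normalized by loess within arrays in R 4.3.3 with limma 3.58.1. Bands of 10 rows more than 0.5 log2 units below an array's median were set missing, as were outlier spots; missing values stayed missing. A probe was kept if Cy5 and Cy3 signals both exceeded 10 on 80% or more of the arrays where it had a value (dimmed and outlier spots not counted), and the brightest probe stood for a gene. Through RefSeq, 31375 of 39429 probes were named. Tumors were grouped by the deposited labels, and replicates were numbered in order of deposition.

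Comparisons were limma fits with Benjamini-Hochberg adjustment over all genes (over 27258 probes for single probes). The within-diet contrasts and the F test came from 1 fit of 6 group means. Within-tumor differences were tested by exact permutation, and correlations by 100000 permutations. All members are named, and of each other list at most 3 called genes with the smallest p, or the 1 with the smallest p. The members and lists were chosen with earlier results of these data known. The fits were tested on simulated data that held no slide or session effects. They recovered 53% to 75% of 2-fold changes, but 14% for the difference between both within-diet changes. False calls made up 3.89% to 8.97% of the calls. Alternatives covered the dimmed rows, imputation, background, normalization, filters, probes, array weights, slide, scan session and each array left out.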

Additional observations from a re-analysis of the deposited data

Results flagged for a closer look

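In HFD Late tumors, Gmps in replicate 1 stood at 1.28 on the log2 scale, with the next highest of the 6 tumors at 0.11. The gap took up 0.716 of the range of the group. It was 1 of 23 groups of 4 to 10 tumors examined in this way over the members, and chance sets apart about 1 in 20. The other probes of Gmps, both dim, had 0.94 and -0.10 in the same tumor.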

How the results depend on the processing

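No paired analysis was possible because each tumor was on an array of its own and the replicate numbers only name tumors. Paics kept its early rise past the threshold in 18 of 19 alternatives (0.78 to 1.49), all but slide as a fixed block, and in all 24 fits without 1 array (0.90 to 1.07). Keeping flagged spots, widening the dimmed range and the within-session pairs were chosen after seeing the data. The cause of the changes that follow was not tested.

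Members called between early and late tumors, 3 as reported, were 7 with median centring, 1 with dimmed rows kept, 1 with slide as a random block and 0 with slide fixed. Genes called, 3218 as reported, were 4615 with median centring, 7101 with array weights, 2134 with dimmed rows kept, 1269 with slide random, 72 with slide fixed and 1312 within session 1. HFD against LFD gave 92 genes with array weights and 3 with slide fixed. Within HFD, genes called (2345) were 8417 with array weights, 1321 with dimmed rows kept, 202 with slide random and 946 from the tumor channel alone. Within HFD-LFD, genes called (138) were 2124 with array weights, 55 with dimmed rows kept, 306 with session fixed, 3 with slide fixed, 8 with slide random, 393 without slides 6 and 7, 91 with the strict filter and 71 from the tumor channel, and members called (0) were 2 with array weights and 1 with median centring. For the difference between diets, genes (2) were 621 and members (0) 1 with array weights, with 4 genes without a filter and 0 with flagged spots kept, the mean over probes, imputation, no background correction, session fixed, slide random, slides 6 and 7 left out or the strict filter. Among late diets, genes (258) were 6594 and members (0) 5 with array weights, and genes were 404 with the widened range, 83 with dimmed rows kept, 65 with session fixed, 11 with slide fixed, 4 with slide random, 146 without slides 6 and 7 and 73 from the tumor channel. With slide fixed, early against late rested on slide 4, with 1 late tumor, and the contrast within HFD and the difference between diets could not be estimated. Within session 2, Paics minus Ppat was 0.56 and Impdh2 minus Impdh1 1.11 (exact p = 0.100 each), and the latter was 0.27 with dimmed rows kept. No relation to the proliferation mean passed then (0 members).

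Without 1 array, early against late gave 1686 to 3987 genes and 1 to 3 members, with 1 member without HFD Early replicate 2 or 3. Within HFD it gave 785 to 3170 genes and 2 to 3 members, within HFD-LFD 15 to 229 genes and 0 to 1 members, for the difference 0 to 20 genes and 0 members, among late diets 79 to 788 genes and 0 to 1 members, and for HFD against LFD 0 genes. Paics minus Ppat ran from 0.70 to 0.92 and Impdh2 minus Impdh1 from 0.96 to 1.07.

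Some directions turned, among them those of the called Impdh1 differences. Early against late, Adss was 0.04 with scanner ratios, 0.35 with median centring, 0.08 with session fixed, 0.20 diet-matched and 0.20 within session 1, Atic -0.02 over probes and 0 without slides 6 and 7, Pfas -0.15 within session 1 and Impdh1 0.34 with dimmed rows kept. Within HFD, Pfas was 0.50 with dimmed rows kept, 0.43 with median centring, 0.30 from the tumor channel and 0.08 with array weights, Atic -0.12 with array weights, Impdh2 -0.34 from the tumor channel and Impdh1 0.48 with dimmed rows kept. Within HFD-LFD, Gart was 0.09 imputed, 0.34 with median centring, 0.14 over probes and 0.05 with flagged spots, Impdh1 0.22 with median centring, 0.11 from the tumor channel and 0.43 with slide fixed, Adsl -0.02 with array weights and -0.14 without slides 6 and 7, Atic -0.02 over probes, and Adss -0.03 and Ppat -0.01 with dimmed rows kept. For the difference, Atic was 0.72 with dimmed rows kept, 0.02 with median centring, 0.08 over probes and 0.09 without slides 6 and 7, Impdh1 0.76 with dimmed rows kept and Adss -0.03 from the tumor channel. For HFD against LFD, Ppat was 0.12 with median centring, 0.03 over probes and 0 with array weights, Pfas 0.22 with median centring, 0.02 from the tumor channel and 0.10 with late HFD tumors alone, where Paics was -0.24, and with slide fixed Adss was 0.22 and Impdh2 -0.02. With dimmed rows kept, r was 0.23 for Impdh1 and 0.03 for Gmps against proliferation and -0.01 for Paics against Ppat.

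Without 1 array, these ranges held both signs: early against late Adss -0.18 to 0.05, for HFD against LFD Ppat -0.13 to 0.04, Pfas -0.12 to 0.09 and Gmps -0.37 to 0.05, within HFD Pfas -0.34 to 0.02 and Atic -0.08 to 0.25, within HFD-LFD Ppat -0.04 to 0.14, Gart -0.29 to 0.11, Adsl -0.14 to 0.32 and Adss -0.23 to 0.23, and for the difference Atic -0.44 to 0.09.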
